A study of Mus musculus with 15 samples.

Results

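The transcripts described here are those of 10 neuronal injury and regeneration genes, Atf3, Jun, Sox11, Sprr1a, Gadd45a, Gap43, Vgf, Gal, Nts and Ecel1. They were chosen by name, as genes whose RNA is known to rise in injured or regrowing neurons, and all 10 were found among the 36265 genes with values. RNA sequencing measured them in the substantia nigra, the midbrain region that holds the dopamine neurons that degenerate in Parkinson disease. The animals were 8 C57Bl/6J mice. An adeno-associated virus (AAV) was placed stereotaxically on 1 side, and tissue from both sides was taken 3 weeks later.

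In 3 mice the injected side received AAV-hSYN1-miR-181 at 1.65e10 vector genomes, which gave 3 injected libraries and 3 uninjected libraries of the same animals. In the GFP set the injected side received AAV-hSYN1-GFP at 1e10 vector genomes, which gave 4 injected and 5 uninjected libraries, since mouse 5 of this set has an uninjected library only. The human synapsin 1 promoter (hSYN1) acts in neurons, and mature miR-181 itself is not measured by polyA-selected libraries. The labels name no strand, arm or family member of miR-181, and no age or sex of the mice is used here. The 2 sets were prepared, sequenced and normalized separately, and differ in dose and in markers of serotonin neurons, given below. Levels are therefore compared within a set, and sets only through each mouse's own change. Each library is 1 side of 1 mouse, so replicates of a group are separate animals.

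When an axon is cut or a neuron is stressed, the kinase DLK and its target JNK carry the signal to the nucleus, where the transcription factors Jun and Atf3 are induced. Together with Sox11 they switch on growth-associated genes such as Gap43 and Sprr1a, and neuropeptides such as galanin (Gal). These genes are known best from peripheral sensory and motor neurons, and induction after injury is known to be weaker in most central neurons.

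miR-181 is a family of microRNAs, which bind messenger RNAs through the seed, bases 2 to 8. The mature 5p strands are printed to show the sequence against which the members were searched, with the seed in capitals, from RefSeq on GRCm38.p6. The 4 strands share 1 seed, ACAUUCA.
mmu-miR-181a-5p: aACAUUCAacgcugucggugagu
mmu-miR-181b-5p: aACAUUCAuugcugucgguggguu
mmu-miR-181c-5p: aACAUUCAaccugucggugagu
mmu-miR-181d-5p: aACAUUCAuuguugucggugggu

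A match to this seed, TGAATGT or GAATGTA, was looked for in 3′ UTRs, taking the longest one that GENCODE M21 gives a gene. It was present in 1 of the 10 members, against 23.8% of 14274 tested genes with an annotated 3′ UTR. The member is Sox11, whose UTR is also the longest of the 10, at 6957 bases against 180 to 1233 bases for the others. The site lies on the minus strand of GRCm38 at chr12:27338392-27338420, and is shown with the match in capitals.
Sox11 site: gtgaactctatTGAATGTctaatacacaa

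The promoters of Atf3, Jun and Sprr1a are shown because Atf3 and Jun make proteins that bind the motifs in them. Atf3 and Sprr1a also had the highest fitted log2 changes among the members in miR-181 mice, 1.19 ± 0.33 and 0.57 ± 0.88 (SE). Neither was called in the main fit. The promoters of Nts and Sox11 also hold motifs and are not shown, and these genes had changes of -0.42 and -0.05. Motifs were searched on both strands of the 250 bases before the RefSeq start, as TGANTCA (AP-1), TGACNTCA (CRE-like) and TNACGTCA (ATF), the last of which can overlap the CRE-like motif. Motifs are in capitals, all 3 windows are on the minus strand of GRCm38.p6, and they lie at chr1:191183334-191183383, chr4:95052223-95052307 and chr3:92485951-92486128.
Atf3: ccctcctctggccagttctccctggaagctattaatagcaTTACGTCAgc
Jun: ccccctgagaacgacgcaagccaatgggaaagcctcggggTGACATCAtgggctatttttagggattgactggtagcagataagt
Sprr1a: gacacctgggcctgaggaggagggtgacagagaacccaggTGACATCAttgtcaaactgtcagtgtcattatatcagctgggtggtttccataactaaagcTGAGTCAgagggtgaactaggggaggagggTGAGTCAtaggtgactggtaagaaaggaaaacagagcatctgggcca

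At least 1 of the 3 motifs was present in 5 of the 8 members with a promoter entry, namely Atf3, Jun, Sox11, Sprr1a and Nts, against 14.5% of 32851 promoters. AP-1 was present in 2 of the 8 against 6.75% of promoters, the CRE-like motif in 4 against 7.49%, and the ATF motif in 1 against 2.52%. These shares are over all promoter entries, while the seed-match share is over tested genes only. The motifs were chosen with these promoters in view, and a match is a description of letters, not a measured binding site. The promoters of Gap43 and Vgf were not analysed here.

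Values were read as TPM (transcript abundance scaled to a fixed total) divided by 1 size factor per library, so they are levels per length of transcript and keep no record of depth. Library sums ran between 970505 and 1040288, and between 15022 and 15563 genes reached a value of 1. The dissected tissue held dopamine neurons in every library, with 10 dopamine neuron markers summing to between 1092 and 2824. At an unadjusted p under 0.05 stood 23.5% of all genes in miR-181 mice, 9.52% in GFP mice and 15.3% in the difference between the sets, and every count at that level given for members or lists is to be read against these shares. In injected against uninjected libraries, 10 microglia and macrophage markers summed to 1062 to 1928 against 447 to 470 in miR-181 mice, and to 707 to 923 against 352 to 481 in GFP mice. The 7 B and plasma cell markers summed to 942 to 4990 in injected miR-181 libraries, against 85.2 to 149 in uninjected ones. In 1 mouse, GFP mouse 1, 8 pituitary markers summed to 2453 on its injected side and to 50141 on its uninjected one, while no other library exceeded 18.7. The changes in GFP mice of Gal, Ecel1 and the neuropeptide and dense-core granule lists are given with and without it. Tph2, a serotonin neuron marker, had 22.1 to 49.2 in injected and 27.1 to 54.9 in uninjected miR-181 libraries. In injected and uninjected GFP libraries it reached at most 1.06 and 0.682. Slc6a4 and Fev, of the same list, were also higher in miR-181 libraries, while Htr1a, Gch1 and Maob showed no such gap. The part of unequal dissection in the difference between the sets was not tested. In such bulk tissue, fewer cells of a type and less RNA per cell cannot be told apart.

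The members spanned more than 2 orders of magnitude in level on the uninjected side. In uninjected libraries of miR-181 mice Gap43 ranked first (415 to 427), followed by Vgf (119 to 125), Jun (19.2 to 22.9) and Nts (14.98 to 15.4), with no overlap between neighbours in that order. Gadd45a (10.4 to 12.6) and Ecel1 (5.89 to 13.3) overlapped each other. Gal, Sox11, Sprr1a and Atf3 were the lowest, each with a mean of at most 2.02, and their ranges overlapped. In uninjected GFP libraries Gap43 and Vgf were again first, at 414 to 481 and 136 to 190, and Atf3 and Sprr1a were last, at 0.682 to 0.938 and 0 to 0.560.

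**Figure D1:**
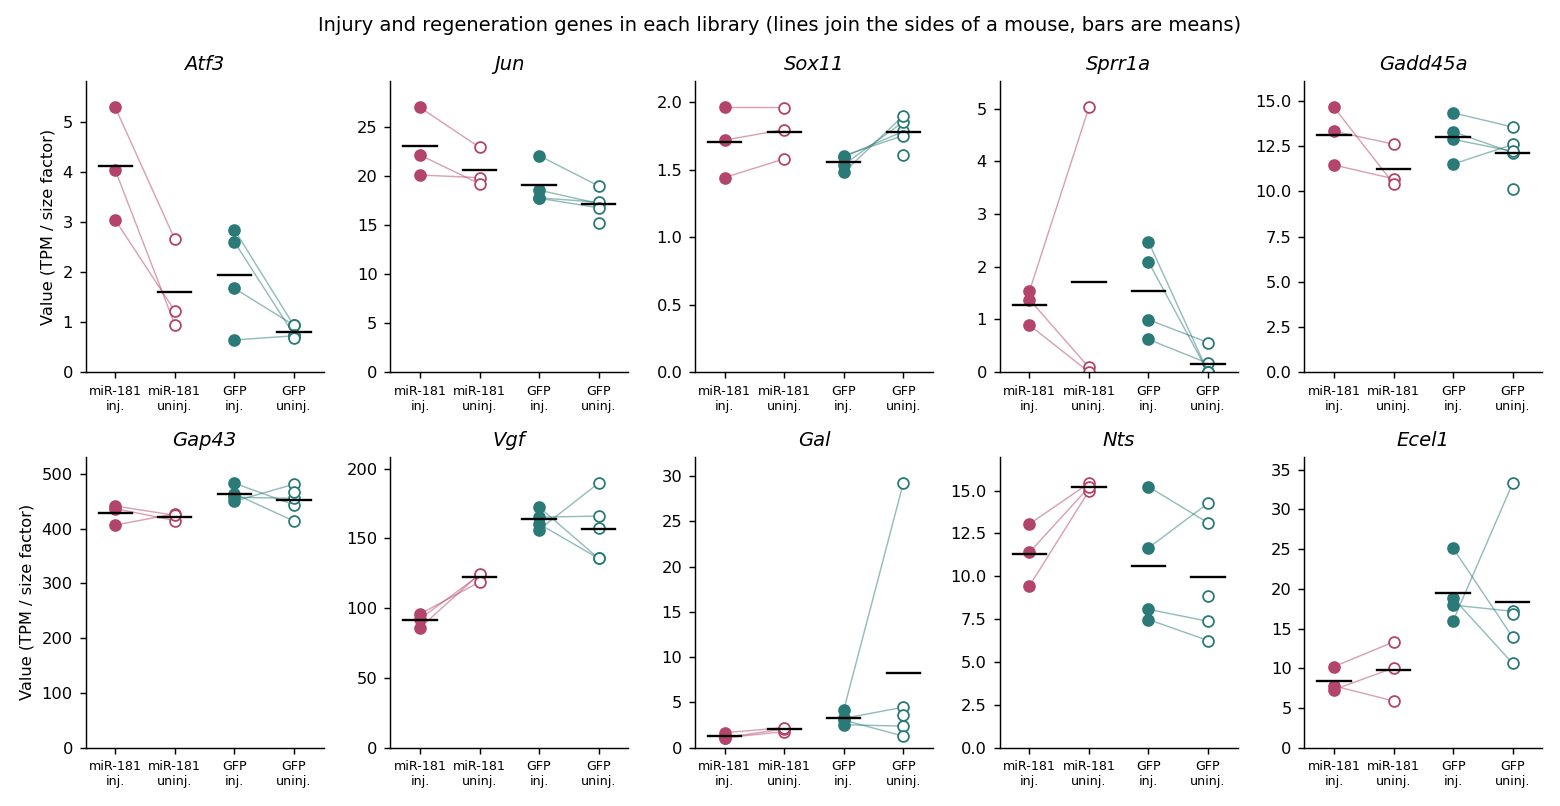
Value of each member (TPM divided by a size factor, linear axes that start at 0) in injected (filled) and uninjected (open) libraries of 3 miR-181 mice and of GFP mice (4 injected, 5 uninjected). Lines join the sides of a mouse and bars are group means. In miR-181 mice the injected libraries of Vgf sit between 85.9 and 95.8, all below the uninjected ones.

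In miR-181 mice 1 of the 10 members passed the test, Vgf, which fell on the injected side. That is 1 of 10, against 5.88% of all 15453 genes tested (limma, Benjamini-Hochberg adjusted p under 0.05). By direction, 1 of 10 members was called lower against 1.49% of genes, and 0 of 10 were called higher against 4.39%. All genes gave 678 higher and 230 lower calls, or 634 and 468 after median centring of the libraries. The fitted log2 change was positive in 5 members and negative in 5, with a median of -0.02, beside 0.00 over all genes tested, and 4 of 10 members had an unadjusted p under 0.05, against 23.5% of genes. With mouse as a block, 2 members were called, Atf3 joining Vgf, among 718 genes in all.

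In GFP mice 0 of the 9 members tested passed limma's test, against 1.35% of 15274 genes, and 1 of the 9, Atf3, had an unadjusted p under 0.05, against 9.52% of genes. The background count was 206 genes, or 135 with mouse as a block, in which no member was called either. The median fitted log2 change of the members was 0.10, beside 0.00 over all genes. Sprr1a was the member left out, since its mean over the libraries was under 1. The difference between the sets, the log2 change of 3 miR-181 mice minus that of 4 GFP mice, was called for 0 of 9 members, against 0.027% of 14824 genes. An unadjusted p under 0.05 was reached by 2 of the 9, Vgf and Nts, against 15.3% of genes, and the median over the members was -0.00.

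Without a test, injected and uninjected libraries did not overlap in 4 of 10 members in miR-181 mice, against 30.5% of genes. Atf3 was above, and Vgf, Gal and Nts were below. In GFP mice the sides did not overlap in 1 of the 9 tested members, Sox11, which was below, against 4.29% of genes.

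**Figure D2:**
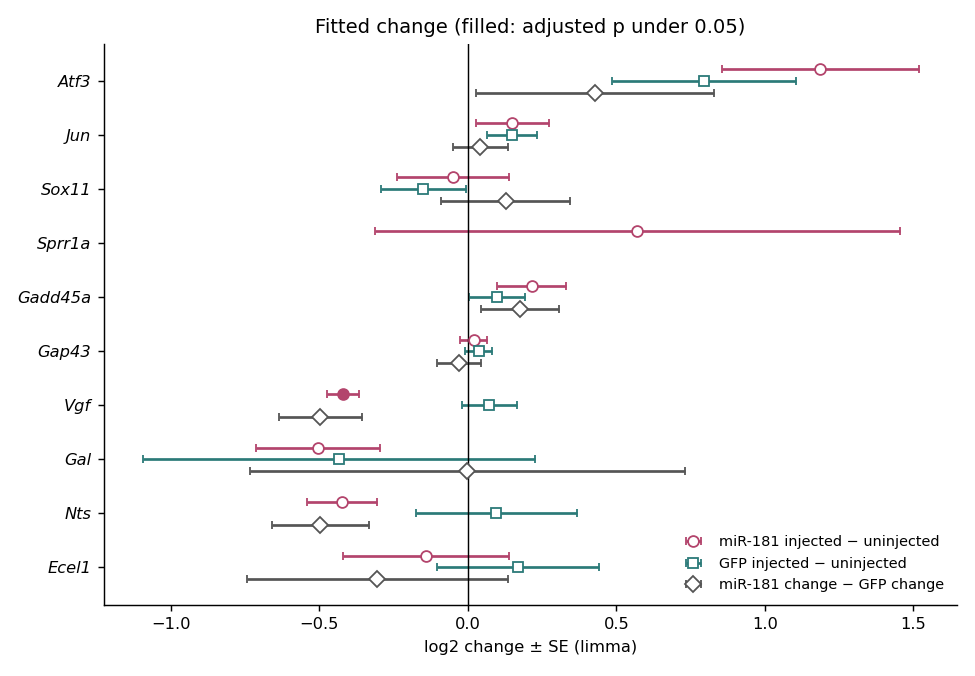
Fitted log2 change with its standard error (limma) for each member, for injected minus uninjected libraries of miR-181 mice (circles), of GFP mice (squares) and for the difference of these changes (diamonds). Filled symbols mark an adjusted p under 0.05, which 1 value reached, the change of -0.42 for Vgf in miR-181 mice. Sprr1a has a value in miR-181 mice only, because it was under the minimum mean in GFP mice.

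Atf3 (ENSMUSG00000026628, GRCm38 chr1:191170296-191218039, minus strand) encodes a transcription factor that is nearly silent in intact neurons and is used as a marker of axon injury. Its values in miR-181 mice 1, 2 and 3 were 3.04, 4.04 and 5.29 on the injected side, against 1.22, 0.950 and 2.66 on the uninjected side. All 3 injected libraries lay above all 3 uninjected ones, and mouse 3 was the highest on both sides. The log2 change was 1.19 ± 0.33 (SE), with a limma adjusted p of 0.0902, and 0.0493 with mouse as a block. Over the 9 fits that left out a library or a mouse the change lay between 0.96 and 1.52 and the limma adjusted p between 0.0596 and 0.427, with 1.52 and 0.0670 without the uninjected library of mouse 3. The deposited means correspond to about 80.0 estimated reads per library in this set.

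In GFP mice 1 to 4 Atf3 had values of 1.68, 2.85, 0.642 and 2.61 on the injected side, against 0.938, 0.932, 0.724, 0.748 and 0.682 in uninjected mice 1 to 5. Injected mice 1, 2 and 4 lay above every uninjected library, and mouse 3 below all 5. The log2 change was 0.79 ± 0.31, with a limma adjusted p of 0.426, and over the 13 fits that left out a library or a mouse the adjusted p lay between 0.0512, without injected mouse 3, and 0.793. About 17.0 estimated reads lay behind a value. The change in miR-181 mice minus that in GFP mice was 0.43 ± 0.40, with a limma adjusted p of 0.670. Beside these values, 9 of 10 microglia and macrophage markers rose in miR-181 mice and 8 of 10 in GFP mice, and the part of such cells in the level of Atf3 was not tested.

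Jun (ENSMUSG00000052684, chr4:95049034-95052222, minus strand) encodes the AP-1 subunit that JNK phosphorylates. In miR-181 mice it had 20.1, 27.0 and 22.1 on the injected side, against 19.8, 22.9 and 19.2 on the uninjected side. In GFP mice it had 18.5, 22.1, 17.8 and 17.7 on the injected side, against 17.2, 19.0, 17.3, 16.7 and 15.2 on the uninjected side. The injected side was the higher one in 3 of 3 miR-181 mice and 4 of 4 GFP mice, but the groups overlapped in both sets. The fitted log2 change was 0.15 ± 0.12 in miR-181 mice, with a limma adjusted p of 0.508. In GFP mice it was 0.15 ± 0.08, with a limma adjusted p of 0.638.

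Sox11 (ENSMUSG00000063632, chr12:27334264-27342574, minus strand) encodes a transcription factor of immature and regrowing neurons, and is the member with a miR-181 seed match. Its values in miR-181 mice were 1.96, 1.72 and 1.44 on the injected side, against 1.96, 1.80 and 1.58 on the uninjected side, and the groups overlapped. The log2 change was -0.05 ± 0.19, with a limma adjusted p of 0.905. In GFP mice, which received no miR-181, it had 1.60, 1.60, 1.54 and 1.48 on the injected side, against 1.78, 1.75, 1.85, 1.90 and 1.61 on the uninjected side. All 4 injected GFP libraries lay below all 5 uninjected ones, with a log2 change of -0.15 ± 0.14 and a limma adjusted p of 0.790. The change in miR-181 mice minus that in GFP mice was 0.13 ± 0.22, with a limma adjusted p of 0.831.

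Sprr1a (ENSMUSG00000050359, chr3:92483952-92485895, minus strand) encodes a small proline-rich protein, first known from skin, that promotes axon outgrowth. In GFP mice it had 0.620, 2.47, 0.993 and 2.09 on the injected side, against 0.166, 0, 0.560, 0 and 0 on the uninjected side. All 4 injected libraries lay above all 5 uninjected ones, of which 3 are listed at 0. The mean difference in log2(value + 0.5) was 1.62. An exact two-sided permutation test that took all libraries as separate gave p = 0.0159, the smallest that 4 against 5 libraries can give, which restates that they do not overlap. Sides of a mouse are not separate, and an exact two-sided permutation within the 4 mice with both sides gave p = 0.125, the smallest that 4 pairs can give, with a mean difference of 1.55. Among all genes with no filter on low values, the limma adjusted p was 0.0949, which misses the threshold.

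In miR-181 mice Sprr1a had 1.38, 0.892 and 1.53 on the injected side, against 0.0878, 0 and 5.02 on the uninjected side. The injected side was the higher one in mice 1 and 2, and the uninjected side in mouse 3, whose value was the highest of the miR-181 set. Sprr1a had a log2 change of 0.57 ± 0.88, with a limma adjusted p of 0.754, on about 7.41 estimated reads per library. The uninjected library of mouse 3 was also the highest uninjected one for Atf3. Its 7 epithelial and keratinocyte markers summed to 10.7, against 6.69 and 8.37 in the other uninjected miR-181 libraries. The injected side of the same mouse had a marker sum of 10.9, as high, with Sprr1a at 1.53. Krt5, which marks the basal layer of skin, is listed at 0 in all 15 libraries. Krt14, of the same list, reached at most 0.0573 in injected and 0.0585 in uninjected miR-181 libraries. The part of such tissue in the value of 5.02 was not tested. Without the uninjected library of mouse 3 the mean of Sprr1a fell under the minimum of 1, and no test was made.

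Gadd45a (ENSMUSG00000036390, chr6:67035096-67037457, minus strand) encodes a stress-induced protein of growth arrest and DNA repair. In miR-181 mice it had 11.5, 14.7 and 13.3 on the injected side, against 10.7, 10.4 and 12.6 on the uninjected side. The injected side was the higher one in 3 of 3 mice, the groups overlapped, and the log2 change was 0.21 ± 0.12 with a limma adjusted p of 0.327. In GFP mice injected libraries had 11.5 to 14.4, with a median of 13.1, against 10.2 to 13.6 with a median of 12.2 in uninjected ones. The log2 change there was 0.10 ± 0.09, with a limma adjusted p of 0.790.

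Gap43 (ENSMUSG00000047261, chr16:42248442-42340651, minus strand) encodes a protein of the growth cone that many adult neurons keep. It was the most abundant member and had the smallest standard error of the tested members within each set. In miR-181 mice it had 436, 407 and 441 on the injected side, against 415, 427 and 424 on the uninjected side, with a log2 change of 0.02 ± 0.05 and a limma adjusted p of 0.844. In GFP mice it had 464, 450, 483 and 457 on the injected side, against 414, 481, 444, 455 and 467 on the uninjected side. The groups overlapped in both sets, and the log2 change in GFP mice was 0.04 ± 0.05, with a limma adjusted p of 0.843. The sign of the change in miR-181 mice turned to -0.05 after median centring of the libraries.

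Vgf (ENSMUSG00000037428, chr5:137026392-137033351, plus strand) encodes a precursor of secreted peptides that neurotrophins and activity induce, and it is stored in dense-core granules. In miR-181 mice it had 92.2, 85.9 and 95.8 on the injected side, against 124, 125 and 119 on the uninjected side. All 3 injected libraries lay below all 3 uninjected ones, and the injected side was the lower one by 0.42, 0.53 and 0.31 on the log2 scale in mice 1, 2 and 3. The log2 change was -0.42 ± 0.05, with a limma adjusted p of 0.0102, and it ranked 153 by p among the genes tested. The call was lost without uninjected mouse 1 (adjusted p = 0.0597), uninjected mouse 2 (0.0666), both sides of mouse 2 (0.0890) or both sides of mouse 3 (0.141), with changes between -0.48 and -0.37 on the log2 scale over the 9 fits that left out a library or a mouse.

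In GFP mice Vgf had 160, 165, 156 and 172 on the injected side, against 136, 166, 190, 136 and 157 on the uninjected side. The groups overlapped, the sides differed in either direction in 2 mice each, and the log2 change was 0.07 ± 0.09 with a limma adjusted p of 0.849. The change in miR-181 mice minus that in GFP mice was -0.50 ± 0.14, with an unadjusted p of 0.00708 and a limma adjusted p of 0.179, so a difference between the sets was not called. It lay between -0.61 and -0.41 over the 7 fits that left out a mouse, with 0 calls.

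The fall of Vgf stood beside negative changes of most general and dopamine neuron markers. The 10 pan-neuronal markers summed to 5012, 4290 and 4761 on the injected side of miR-181 mice 1, 2 and 3, against 5161, 5320 and 5436 on the uninjected side. None of the 10 was called by limma, or 1 lower with median centring or quantile normalization, 7 had an unadjusted p under 0.05, and 9 of 10 had a negative log2 change, with a median of -0.20. The most negative were Elavl4, an RNA-binding protein of neurons, with a log2 change of -0.47 ± 0.20 (SE), and Nefm, a neurofilament, with -0.35. Only Elavl4 had a more negative change than the -0.42 of Vgf. At the other end of the list were Map2 with -0.09, Eno2 with -0.01 and Syt1, the 1 positive marker, with 0.10. By mouse, the median log2 change of these markers was -0.04, -0.36 and -0.21 in mice 1, 2 and 3. The 10 dopamine neuron markers had 10 negative changes in miR-181 mice, with a median of -0.31, and 10 positive ones in GFP mice, with a median of 0.11, and limma called none in either set, with 1 and 0 at an unadjusted p under 0.05. By mouse their median was -0.00, -0.91 and 0.02 in miR-181 mice 1, 2 and 3. Vgf, Nts and Gal also had their most negative changes in mouse 2. In mice 1 and 3 the log2 changes were -0.42 and -0.31 for Vgf, -0.23 and -0.40 for Nts and -0.52 and -0.33 for Gal. In GFP mice the pan-neuronal markers summed to 4973 to 5113 on the injected side, against 5024 to 5316 on the uninjected side. All 5 cholinergic and motor neuron markers tested in miR-181 mice had negative changes, with a median of -0.46, and limma called none. By mouse their median was -0.45, -0.99 and -0.07 in miR-181 mice 1, 2 and 3. The part of neuronal RNA content, or of unequal dissection of the sides, in the values of Vgf, Nts, Gal and the dense-core granule genes was not tested.

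Nts (ENSMUSG00000019890, chr10:102481756-102490486, minus strand) encodes neurotensin, a peptide that acts on midbrain dopamine neurons through its receptor Ntsr1. Values in miR-181 mice were 13.1, 9.44 and 11.4 on the injected side, against 15.4, 14.98 and 15.2 on the uninjected side. All 3 injected libraries lay below all 3 uninjected ones, with a log2 change of -0.42 ± 0.12 and a limma adjusted p of 0.0880. Over the 9 fits that left out a library or a mouse the change lay between -0.53 and -0.31 and the limma adjusted p between 0.0220 and 0.390, and it passed in 1 of them, without injected mouse 1. In GFP mice it had 8.07, 7.48, 11.7 and 15.2 on the injected side, against 7.38, 6.26, 14.3, 13.1 and 8.87 on the uninjected side. There the groups overlapped, and mice 3 and 4 were high on both sides. The log2 change in GFP mice was 0.10 ± 0.27, with a limma adjusted p of 0.941. The difference between the sets was -0.50 ± 0.16, with an unadjusted p of 0.0147 and a limma adjusted p of 0.215. That difference lay between -0.61 and -0.39 over the 7 fits that left out a mouse, with 0 calls.

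Gal (ENSMUSG00000024907, chr19:3409915-3414544, minus strand) encodes galanin, a neuropeptide that injured neurons release. Values in miR-181 mice were 1.09, 1.12 and 1.66 on the injected side, against 1.78, 2.07 and 2.22 on the uninjected side. All 3 injected libraries lay below all 3 uninjected ones, on about 17.3 estimated reads per library. Gal had a log2 change of -0.51 ± 0.21, with a limma adjusted p of 0.206.

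In GFP mice Gal had 4.18, 2.55, 3.24 and 3.05 on the injected side, against 29.2, 2.38, 4.48, 1.29 and 3.64 on the uninjected side. The value of 29.2 was that of uninjected mouse 1, the library with pituitary markers, and the other libraries of both sides overlapped. The log2 change was -0.44 ± 0.66, with a limma adjusted p of 0.876. It was 0.21 without that library and 0.10 without both sides of mouse 1. The difference between the sets was -0.00 ± 0.73 with all mice and -0.72 without GFP mouse 1, with limma adjusted p of 1.00 and 0.421.

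Ecel1 (ENSMUSG00000026247, chr1:87147655-87156521, minus strand) encodes a membrane peptidase, also called DINE, that damaged neurons induce. Its values in miR-181 mice were 7.78, 7.32 and 10.2 on the injected side, against 5.89, 10.05 and 13.3 on the uninjected side, and the groups overlapped. This gave a log2 change of -0.14 ± 0.28, with a limma adjusted p of 0.806. In GFP mice it had 16.0, 18.8, 18.0 and 25.1 on the injected side, against 33.3, 10.6, 17.2, 13.9 and 16.8 on the uninjected side. The value of 33.3 was again that of uninjected mouse 1. The fitted log2 change was 0.17 ± 0.27, with a limma adjusted p of 0.886, and 0.49 with a limma adjusted p of 0.412 without both sides of that mouse. The difference between the sets was -0.31 ± 0.44, with a limma adjusted p of 0.798. It lay between -0.70 and -0.08 over the 7 fits that left out a mouse, with 0 calls.

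**Figure D3:**
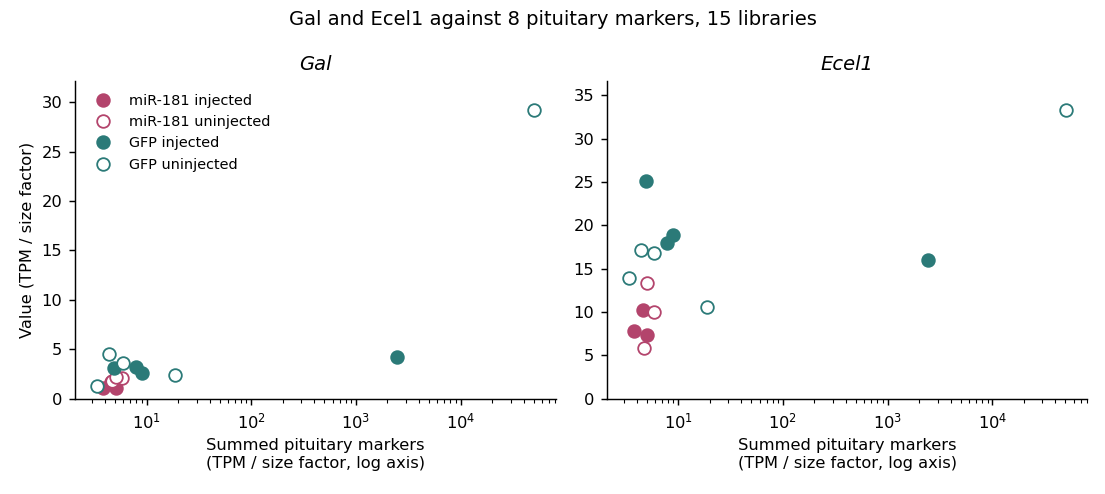
Value of Gal (left) and Ecel1 (right), in TPM divided by a size factor on linear axes, against the summed level of 8 pituitary markers on a log axis, for all 15 libraries (filled, injected; open, uninjected). Uninjected GFP mouse 1 lies alone at a marker sum of 50141, with 29.2 for Gal and 33.3 for Ecel1, and the injected side of that mouse lies at 2453.

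Genes of the same pathways were counted from lists chosen by name. Every count of calls in a list is to be read against all genes tested. Of these, 4.39% rose and 1.49% fell in miR-181 mice, and 1.35% were called in GFP mice. Of 36 tested genes that accompany axon regeneration, 3 rose and 0 fell in miR-181 mice, with a median log2 change of -0.06. They were Csf1, a cytokine that injured neurons make for microglia, Stat3, a transcription factor of regrowth that reactive astrocytes also use, and Cd44, an adhesion receptor also found on leukocytes and astrocytes. Csf1 averaged 41.8 ± 6.02 in injected and 25.5 ± 3.12 in uninjected libraries (SD, n = 3 each), a log2 change of 0.70 with a limma adjusted p of 0.0261. Stat3 averaged 72.6 ± 17.1 in injected and 40.9 ± 1.85 in uninjected libraries, a log2 change of 0.80 with a limma adjusted p of 0.0335. Cd44 averaged 5.83 ± 1.47 in injected and 2.69 ± 0.346 in uninjected libraries, a log2 change of 0.97 with a limma adjusted p of 0.0379.

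These 3 calls were lost, with 0 of the list called, when mouse was a block, with no filter on low values and with no intensity trend. They were also lost without any 1 uninjected library, without injected mouse 3 and without both sides of mouse 2 or of mouse 3, while median centring gave 3 higher and 1 lower. Beside these genes, 3 of 7 astrocyte markers were called higher in miR-181 mice, Gfap by 0.97, Vim by 0.86 and Aqp4 by 0.46 on the log2 scale. Gfap and Vim were called higher in GFP mice, by 0.83 and 0.56. With no filter on low values 0 were called in either set. With no intensity trend 1 was called in miR-181 mice and 0 in GFP mice. With a library or mouse left out, 0 were called in 5 of 9 fits in miR-181 mice and in 8 of 13 in GFP mice. The 7 markers summed to 1761 to 2107 in injected against 1314 to 1441 in uninjected libraries of miR-181 mice, and their part in the rise of Csf1, Stat3 and Cd44 was not tested.

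The neuronal tubulin Tubb3, on the same list and also counted among the pan-neuronal markers, averaged 457 ± 44.0 in injected and 567 ± 9.09 in uninjected libraries, with a log2 change of -0.31 and a limma adjusted p of 0.0534. In GFP mice 0 of 36 genes of the list were called, and 6 had an unadjusted p under 0.05. Csf1 had the smallest p there, at 26.4 ± 2.44 in injected and 20.3 ± 2.22 in uninjected libraries, with a log2 change of 0.37 and a limma adjusted p of 0.114.

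Of 17 genes of DLK, JNK and axon survival, 0 were called by limma in miR-181 mice, against 5.88% of all genes. An unadjusted p under 0.05 was reached by 9, and the median log2 change was -0.10. These are RNA levels, and the activity of the kinases was not measured. Nmnat2, a short-lived enzyme that keeps axons intact, averaged 69.4 ± 3.56 in injected and 79.5 ± 2.98 in uninjected libraries, with a log2 change of -0.20 and a limma adjusted p of 0.0946. Ddit3, the stress factor CHOP, averaged 96.7 ± 25.8 in injected and 61.1 ± 2.47 in uninjected libraries, with a log2 change of 0.62 and a limma adjusted p of 0.103. In GFP mice 0 of 17 were called, 1 had an unadjusted p under 0.05, and the median was -0.02.

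Of 17 other AP-1 and ATF factors tested, 1 rose in miR-181 mice and none fell, against 4.39% and 1.49% of all genes. It was Batf2, an interferon-responsive factor of immune cells, which averaged 6.29 ± 3.59 in injected and 0.259 ± 0.140 in uninjected libraries, a log2 change of 3.02 with a limma adjusted p of 0.0139. No factor of the list was called without any 1 uninjected library, without injected mouse 3 or without both sides of mouse 2 or of mouse 3, and 6 were without injected mouse 1. Median centring gave 1 higher and 1 lower. A pseudocount of 0.1 and quantile normalization each gave 2 higher. The list had 15 positive and 2 negative changes, with a median of 0.31, and 10 of the 17 had an unadjusted p under 0.05. Atf4, a factor of the integrated stress response that induces Atf3, averaged 180 ± 24.2 in injected and 133 ± 2.57 in uninjected libraries. Its log2 change was 0.42, with a limma adjusted p of 0.0515. Jdp2, 1 of the 2 with a negative change, averaged 26.8 ± 1.17 in injected and 31.4 ± 1.00 in uninjected libraries. Its log2 change was -0.23, with a limma adjusted p of 0.0740. In GFP mice 0 of 14 were called by limma, 1 had an unadjusted p under 0.05, and the median was 0.00. With no filter on low values, 1 was called higher in GFP mice. Atf4 had a log2 change of -0.05 there, with a limma adjusted p of 0.754, beside the 0.79 of Atf3. The part of Atf4 in the level of Atf3 was not tested.

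The dense-core granule stores Vgf, Gal and Nts peptides. Of 15 of its genes, 1 fell in miR-181 mice and none rose, against 1.49% and 4.39% of all genes. It was Chga, chromogranin A, which averaged 228 ± 27.9 in injected and 306 ± 4.12 in uninjected libraries, a log2 change of -0.43 with a limma adjusted p of 0.0391. That call was lost when mouse was a block, with no filter on low values, with no intensity trend, without any 1 uninjected library, without injected mouse 3 and without both sides of any mouse. The change was negative in 13 of 15, with a median of -0.18, and 8 had an unadjusted p under 0.05. Pam, the peptide-amidating enzyme, averaged 94.4 ± 15.4 in injected and 125 ± 3.68 in uninjected libraries, with a log2 change of -0.42 and a limma adjusted p of 0.0875. The median stood near the -0.20 of the pan-neuronal markers. In GFP mice 0 of 15 were called by limma, 0 had an unadjusted p under 0.05, and the median was -0.02 with and without GFP mouse 1.

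**Figure D4:**
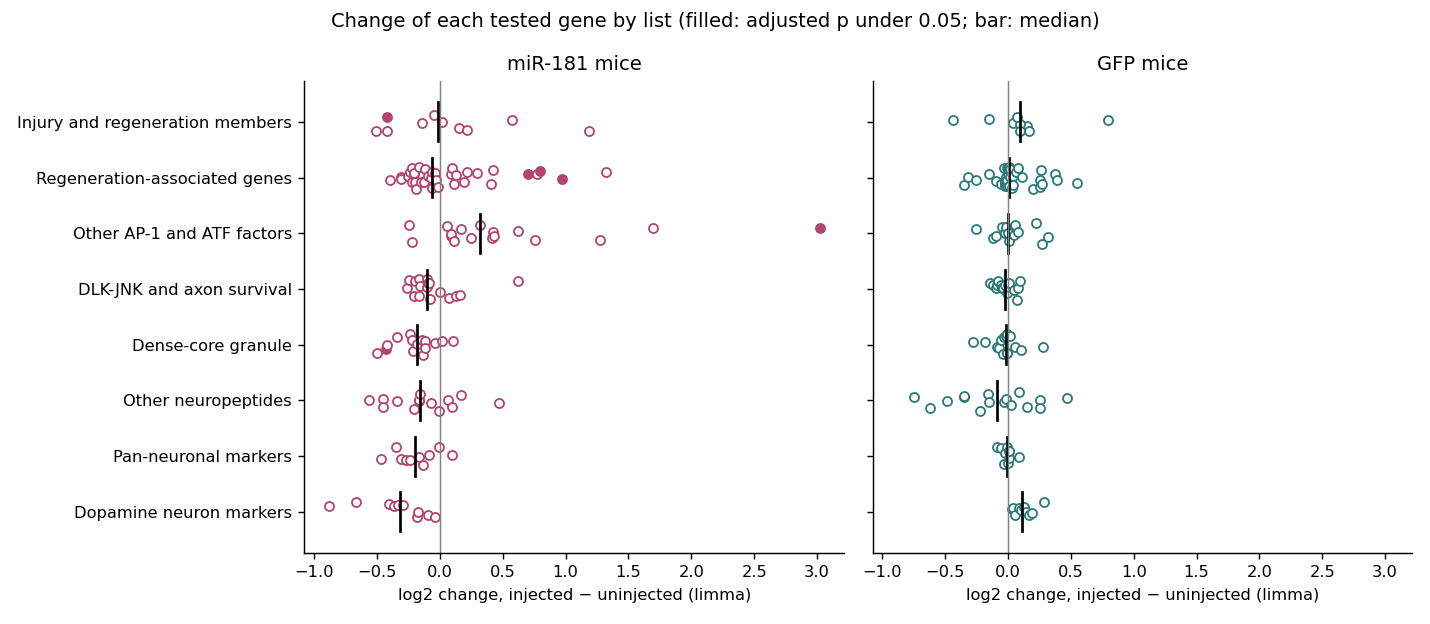
Fitted log2 change, injected minus uninjected, of each tested gene (points) in the members and in 7 lists, in miR-181 mice (left) and GFP mice (right) on 1 scale. Filled points have an adjusted p under 0.05 and black bars are medians. In miR-181 mice the AP-1 and ATF factors have a median of 0.31 and the dense-core granule genes one of -0.18, while the median of the members is -0.02.

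Of 14 other neuropeptides tested in miR-181 mice and 16 in GFP mice, 0 were called by limma in either set, with 2 and 0 at an unadjusted p under 0.05. In miR-181 mice 1 was called lower with mouse as a block, and 1 with no filter on low values. Their median log2 change was -0.16 in miR-181 mice and -0.09 in GFP mice, or -0.05 without both sides of GFP mouse 1, where limma again called 0. Receptors were listed for neurotensin and galanin. Those that reached the minimum level, Ntsr1, Ntsr2 and Sort1, were not called by limma in either set, and 0 of the 3 had an unadjusted p under 0.05. Ntsr1 averaged 16.6 ± 4.58 in injected and 20.2 ± 4.24 in uninjected libraries of miR-181 mice, with a log2 change of -0.29. The galanin receptors were under the minimum level. Of 12 tested relatives of the members, 0 were called by limma in either set, with 1 and 0 at an unadjusted p under 0.05. That gene was Gadd45b, which averaged 11.4 ± 1.71 in injected and 8.47 ± 1.08 in uninjected libraries of miR-181 mice, with a log2 change of 0.41 and a limma adjusted p of 0.137. In the difference between the sets no gene of these 7 pathway lists was called by limma, and between 0 and 8 genes of a list had an unadjusted p under 0.05.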

How the data were processed

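PolyA-selected, stranded RNA of 15 substantia nigra libraries was read as 75-base pairs (miR-181 set) or 50-base pairs (GFP set), per the labels' protocols. Reads were quantified with kallisto 0.43.1 and sleuth 0.30.0 on GRCm38, per the submitters' processing notes; how transcripts were combined into genes is not given in the sources used here. The authors deposited a signal per gene and library, read from its sums as TPM divided by 1 size factor per library, with both tables normalized separately. The deposited mean of the natural log of estimated counts, named as such per the file headers, served only to give the approximate reads behind a gene, and its exponentials summed, in units of 1e+06, to 22.0 in the miR-181 table and 9.65 in the GFP table. The depth of each library is unknown, so no counting interval is given.

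Of 56305 rows in a table, 36660 had values; 395 repeats of a symbol with identical values were left out. A symbol shared by several identifiers (66 symbols) was matched to the annotated identifier with the highest mean. Coordinates come from GENCODE M21, and 35859 of the 36265 genes kept are in it. The test was limma 3.58.1 (R 4.3.3, eBayes with an intensity trend) on log2(value + 0.5). Genes averaging 1 or more entered, and Benjamini-Hochberg adjustment ran over all of them at 0.05. Because of the pseudocount, the change of a low gene is understated. The difference between the sets used the change of each mouse. Both sides come from 1 animal per the labels, so mouse numbers pair the libraries: deviations from group means correlated between sides at 0.140 to 0.257 in the 3 miR-181 mice and at 0.0177 to 0.192 in the 4 GFP mice. The tests within a set have no mouse term, and mouse as a block was an alternative, as were other pseudocounts, filters and scalings, no intensity trend and leaving out libraries or mice. For Sprr1a in GFP mice, which the filter left out, an exact permutation test was used, over libraries and, added after the data were seen, within mice. The fitting script was tested on simulated data. Python 3.11.15, numpy 2.4.6, scipy 1.17.1, pandas 2.3.3 and matplotlib 3.10.9 were used.

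The members, lists and tests were chosen with earlier results of these data known. All 10 members are named. From each of 7 pathway lists, up to 4 genes with the smallest p in miR-181 mice and up to 2 in GFP mice could be named, and those described were selected from them after their values were seen. Ntsr1, Ntsr2 and Sort1 were the listed receptors that reached the minimum level. Marker lists serve to describe the tissue. Promoter and microRNA sequences come from RefSeq, GRCm38.p6.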

Additional observations from a re-analysis of the deposited data

Results flagged for a closer look

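Of 20 sets of values examined (10 members in each of 2 groups of 4 or 5 libraries), 2 had a library far from the others, and chance flags about 1 in 20. Gal was 29.2 in uninjected GFP mouse 1, against 1.29 to 4.48 in the other 4 uninjected GFP libraries. Ecel1 was 33.3 in the same library, against 10.6 to 17.2 in the others. The flag of Ecel1 was marginal: its gap to the next library was 0.711 of the range, against a limit of 0.710. For Gal the gap was 0.886 of the range. Uninjected GFP mouse 1 also held 8 pituitary markers at a sum of 50141, against 3.36 to 18.7 in the other uninjected GFP libraries. The part of such tissue in the values of Gal and Ecel1 was not tested.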

How the results depend on the processing

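Of 483 values of members under other settings, 452 kept their direction and side of the threshold, 2 passed it (Atf3 with mouse as a replicate block, Nts without injected mouse 1), 4 lost it (Vgf, described above) and 25 changed sign, each of a change that no setting called. The replicate block raised the members called in miR-181 mice to 2 from 1 and changed no other member's call. Leaving out a library or mouse gave 0 to 2 members called in miR-181 mice and 0 in GFP mice and in the difference. Genes called in miR-181 mice numbered 1 to 1924 when a library or mouse was left out (1 without both sides of mouse 3, 107 without mouse 2, 117, 139 and 180 without uninjected mice 2, 1 and 3, 198 and 511 without injected mice 3 and 2, 1924 without injected mouse 1), 315 with no filter on low values and 449 with no intensity trend. In GFP mice they numbered 64 to 255, against 206, with 136 at a mean of at least 5 and 135 with the replicate block. In the difference they numbered 1 to 322 without a mouse, against 4, with 1 at a pseudocount of 1, with no filter, with median centring or with quantile normalization, and 45 with no replicate block. Leaving out a library or mouse changed signs (log2, lowest to highest) in miR-181 mice for Gap43 (-0.0076 to 0.064), Sox11 (-0.13 to 0.039), Sprr1a (-0.046 to 0.73) and Ecel1 (-0.45 to 0.11), in GFP mice for Nts (-0.089 to 0.24), Gal (-0.81 to 0.21), Ecel1 (-0.028 to 0.49) and Vgf (-0.0030 to 0.16), and in the difference for Gal (-0.72 to 0.50) and Gap43 (-0.078 to 0.015). Gap43 also reversed in miR-181 mice with median centring (-0.046) and quantile normalization (-0.0017), and with quantile normalization in GFP mice (-0.029) and in the difference (0.016). Gal reversed in the difference at a pseudocount of 1 (0.10). The calls of the regeneration-associated, dense-core granule and astrocyte lists in miR-181 mice fell to 0 under several settings, as given with them. The cause was not tested. Atf3, Gal and Sprr1a rest on few reads, which limits what could be detected for them.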
